A study of Rattus norvegicus with 82 samples.

Results

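In failing rat hearts, the right ventricle (RV) was compared with the same animal's left ventricle (LV) after pulmonary artery banding had led to decompensation, a condition the study calls PAB-F. Members were the libraries whose titles carry PAB-F, 6 of the RV and 6 of the LV, paired by the animal number in the title. These were 12 of the 82 RNA-seq libraries of the series, which came from 41 rats with 1 library for each ventricle. The question was which differences between the ventricles of sham-operated hearts persisted, vanished or reversed in hearts whose RV had failed.

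The rats were the F1 offspring of female Wistar Kyoto and male Lewis rats. A clip that did not at first constrict was placed around the pulmonary artery (PAB) or the aorta (AOB), and the load on the RV or the LV rose as the animal grew, while sham animals were operated on without it. PAB-F held 4 male and 2 female animals aged 28 weeks, 22 weeks after surgery. The control was Sham-F, 9 animals (4 male, 5 female) aged 31 weeks and 26 weeks after surgery, so that banding and the age difference cannot be told apart. AOB-F held 7 animals (4 male, 3 female) of the Sham-F age with a failing LV. Sham-H (7 animals, 3 male and 4 female) and PAB-H (6 animals, 4 male and 2 female) were 11 weeks old and 7 weeks past surgery, PAB-H with compensated RV hypertrophy. AOB-H (6 animals, 2 male and 4 female), with aortic banding and of the same age, entered only the fit over all libraries. No animal carried a transgene. Hearts were digested with collagenase, the ventricles were separated and cardiac myocytes were enriched by centrifugation, so these were bulk libraries of a preparation that still held other cells. In bulk samples, fewer cells of a type and less RNA per cell cannot be told apart.

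The ventricles arise from different precursor cells and pump against different pressures, and they keep distinct sets of transcription factors and ion channels in adult life. A loaded ventricle turns on genes of the fetal heart, among them the natriuretic peptides Nppa and Nppb, hormones that lower blood pressure and volume, and skeletal alpha-actin (Acta1). The LV of a healthy heart carries the systemic load and the RV only that of the lungs.

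PAB-F libraries held 9021262 to 15898376 counts on genes in the RV and 10121379 to 18108115 in the LV. Genes of ventricular myocytes took 8.68 to 11.7% of the counts in the RV and 8.15 to 10.8% in the LV and were higher in the RV of 6 of 6 animals. The PAB-F animals are called here by their replicate numbers, 1 to 6. Animal 5 stood apart: the standard deviation over genes of its RV minus LV difference was 0.543 on the log2 scale, against 0.911 to 1.14 in the other 5 PAB-F animals and at least 1.06 in Sham-F. Leaving out animal 1 lowered the count of differences from Sham-F most, and the main counts are therefore also given without either animal.

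Most chamber differences of sham hearts were present in PAB-F. Of 11954 genes tested, 2070 (17.3%) were called between RV and LV in PAB-F, 1219 higher in the RV (10.2%) and 851 lower (7.12%). A gene was called where the Benjamini-Hochberg adjusted p was under 0.05, the fold change was over 2 (1 on the log2 scale) and the mean normalized count was over 50 in at least 1 ventricle. Normalized counts are counts scaled to a common library of 13279120 reads. By adjusted p alone 7920 (66.3%) differed, and 6253 genes (52.3%) had 1 sign in all 6 animals. In Sham-F, 3336 genes (27.9%) were called, 1841 higher (15.4%) and 1495 lower (12.5%). Of these, 1941 were called with the same sign in PAB-F, which is 58.2% of the Sham-F calls and 93.8% of the PAB-F calls, and they are said here to have persisted. Without animal 5, 2709 genes (22.5%) were called in PAB-F and 2406 persisted. Without animal 1 the numbers were 2174 (18.1%) and 2056. Across genes the difference in PAB-F and that in Sham-F had a Pearson correlation of 0.905, given as a description, since genes of a library share its depth and preparation. The median difference over all genes was 0.03 in PAB-F and -0.05 in Sham-F on the log2 scale.

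Few differences were shown to have changed. The RV minus LV difference itself differed between PAB-F and Sham-F at an adjusted p under 0.05 for 349 genes (2.92%), 280 toward a higher RV in PAB-F (2.34%) and 69 toward a lower one (0.577%). Among the genes called in Sham-F, 46 were lost, meaning that the change passed the test and the PAB-F difference did not. Another 107 were narrowed, in that they still differed in PAB-F by the test but fell short of a call. The sign of 1 gene called in Sham-F, Gpnmb, was reversed. Another 8 genes were gained, called in PAB-F and not in Sham-F with a tested change. For 1241 genes called in Sham-F and not in PAB-F, and for 121 called in PAB-F and not in Sham-F, a change was not shown. The 349 became 83 without animal 5 and 26 without animal 1, and lost genes became 18 and 7. Of the 31 named genes with a tested change, 22 missed the threshold on leaving out 1 or another PAB-F animal, and where this was animal 1 or 5 it is given with the genes below.

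**Figure D1:**
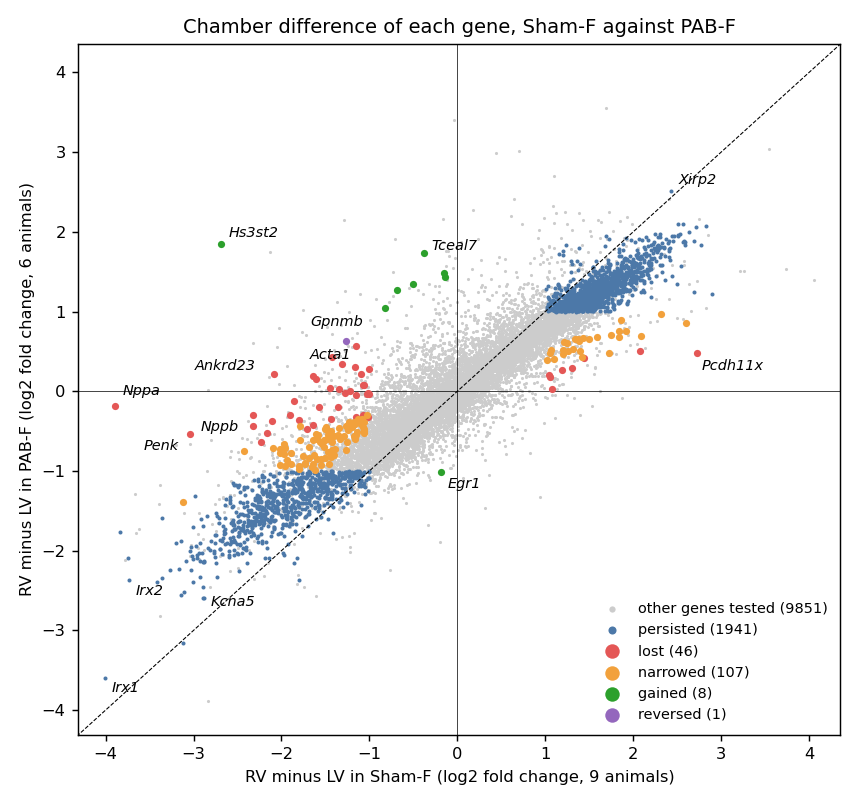
Each point is 1 of 11954 genes, placed by its RV minus LV log2 fold change in Sham-F (horizontal axis, 9 animals) and in PAB-F (vertical axis, 6 animals), with the dashed line marking equal differences and colour marking the class. The 1941 persisting genes lie along the diagonal, the 46 lost genes lie near 0 on the vertical axis, and 38 of those 46 are on the left, lower in the RV of Sham-F.

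Several patterning transcription factors were still biased in PAB-F. Irx1, an Iroquois homeobox factor of the ventricular septum and trabeculae, had normalized counts of 0, 5.08 and 22.7 (lowest, median, highest) in the RV of PAB-F and 25.3, 82.4 and 143 in the LV. The ventricles did not overlap, and Irx1 was lower in the RV of 41 of 41 animals of the series. Its log2 difference was -3.60 ± 0.43 (SE, n = 6; edgeR adjusted p 1.1e-08) in PAB-F and -4.01 ± 0.35 in Sham-F. Irx2, of the same family, lay at 3.49, 14.4 and 95.8 in the RV and 60.8, 105 and 128 in the LV. The ventricles overlapped through 1 RV library, and the gene was lower in the RV of 6 of 6 animals. Its difference was -2.37 ± 0.40 (edgeR adjusted p 3.49e-06) against -3.74 ± 0.35 in Sham-F, a change of 1.37 that did not pass the test (edgeR adjusted p 0.158).

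Of the 26 tested genes in a list of chamber and core cardiac transcription factors, 7 were called lower in the RV of PAB-F and 0 higher, against 8 lower and 2 higher in Sham-F. Over all genes the shares called lower and higher were 7.12% and 10.2% in PAB-F and 12.5% and 15.4% in Sham-F, and every list count below is to be read beside them. The 7 persisted, and they included Tbx2 (-1.68 ± 0.22) and Tbx3 (-1.47 ± 0.17), T-box repressors, the Notch target Hey1 (-1.34 ± 0.23) and the nuclear receptors Nr2f1 (-1.25 ± 0.26) and Nr2f2 (-1.04 ± 0.22). Hopx, a homeodomain protein that does not bind DNA, was the list's only gene with a tested change: its difference of -1.5 ± 0.15 in Sham-F narrowed to -0.47 ± 0.18 (edgeR adjusted p of the change 0.0126). That change did not pass without animal 1 (0.87, adjusted p 0.104) or without animal 5 (0.95, adjusted p 0.0585). Hand2, a factor of RV development, was at -0.37 ± 0.14 in PAB-F and -0.47 ± 0.11 in Sham-F.

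Among genes of the myocyte itself, the potassium channel gene Kcna5 had normalized counts of 22.1, 32.2 and 71.5 in the RV of PAB-F and 174, 204 and 333 in the LV. No RV library reached the lowest LV library, and the log2 difference of -2.46 ± 0.25 (edgeR adjusted p 5.16e-10) stood beside -2.89 ± 0.21 in Sham-F. Xirp2, an actin-binding protein of the intercalated disc, was biased the other way. Its normalized counts were 9047, 23890 and 38320 in the RV of PAB-F and 2534, 3179 and 7750 in the LV. Again the ventricles did not overlap, and the difference was 2.51 ± 0.36 (edgeR adjusted p 2.71e-07) in PAB-F and 2.43 ± 0.29 in Sham-F. Ankrd1, a stretch-responsive protein of the sarcomere, was higher in the RV of 6 of 6 animals (1.33 ± 0.20 in PAB-F, 1.14 ± 0.16 in Sham-F).

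Genes of energy supply and calcium handling that were higher in the RV of Sham-F were in part still higher in PAB-F. In a list of 24 tested genes of calcium cycling and ion pumps, 5 were called higher in PAB-F and 10 in Sham-F, 0 were called lower in either, and a tested change was found for 0 of the 24, beside 2.92% of all genes. Trdn, which anchors the calcium store to its release channel, was at 1.38 ± 0.23 and the sodium-calcium exchanger Slc8a1 at 1.09 ± 0.15. The calcium channel subunit Cacna2d1 was at 1.23 ± 0.17. Of 32 genes of fatty acid oxidation, 7 were called higher in PAB-F and 14 in Sham-F, with 0 lower in either, and the median difference was 0.36 in PAB-F and 0.56 in Sham-F. Acadm, a dehydrogenase for medium-chain fatty acids, was at 1.30 ± 0.21. Changes passed the test for 2 of the 32: Hadh, an enzyme of beta-oxidation, narrowed from 1.03 to 0.39 (edgeR adjusted p of the change 0.0328) and Pdk4, a kinase that holds back glucose oxidation, from 1.58 to 0.68 (edgeR adjusted p of the change 0.016). Neither change passed without animal 1 (adjusted p 0.191 for Hadh and 0.107 for Pdk4) or without animal 5 (0.176 and 0.11).

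Subunits of oxidative phosphorylation went both ways. Of 76 tested, 5 were called higher and 6 lower in the RV of PAB-F, against 7 and 4 in Sham-F, and by adjusted p alone 15 were higher and 45 lower in PAB-F, beside 34.1% and 32.2% of all genes tested. A tested change from Sham-F was found for 0 of the 76 by edgeR. Uqcrc2, of complex III, was at 1.5 ± 0.22 and Ndufs1, of complex I, at 1.45 ± 0.23. Ndufa4l2 (-2.25 ± 0.31) and Cox4i2 (-1.89 ± 0.25), which are enriched in pericytes in many tissues, were lower in the RV of 6 of 6 animals. Without animal 5, 18 of the 76 were called lower in the RV and 6 higher.

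**Figure D2:**
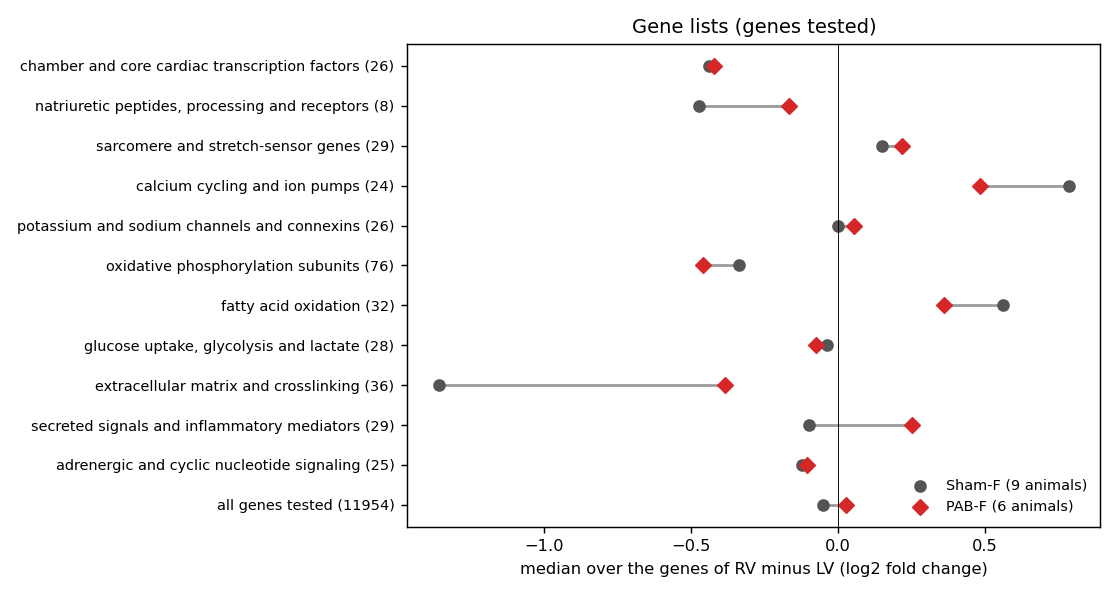
For 11 gene lists and for all genes tested, the median RV minus LV log2 fold change is shown in Sham-F (grey circles, 9 animals) and in PAB-F (red diamonds, 6 animals), with the number of genes tested in parentheses. The longest distance is that of extracellular matrix genes, from -1.36 to -0.38, and the median of all genes lies near 0 in both.

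Endothelial and mural genes were mostly lower in the RV of both conditions. By edgeR adjusted p, 5 of 8 endothelial markers were lower and 1 was higher in the RV of each condition. Of 7 mural markers, 5 were lower in each condition and 1 was higher in Sham-F. A tested change toward a higher RV in PAB-F was found for 2 endothelial markers and 1 mural marker. Lrg1, a secreted glycoprotein of endothelial cells, had normalized counts of 92.8, 135 and 191 in the RV of PAB-F and 318, 896 and 1212 in the LV. The ventricles did not overlap (-2.55 ± 0.25 in PAB-F, edgeR adjusted p 3.07e-10, and -3.14 ± 0.21 in Sham-F). Tcf15, a transcription factor of the capillary endothelium of the heart, was at -2.52 ± 0.27. Npr1, the receptor of both natriuretic peptides, was lower in the RV of 6 of 6 animals (-1.41 ± 0.18). Markers of endothelial cells together took 0.0897 to 0.205% of counts in the RV and 0.169 to 0.379% in the LV of PAB-F and were lower in the RV of 6 of 6 animals, as in 9 of 9 Sham-F animals. Their ratio of RV to LV was 0.91 in animal 5 and 0.278 to 0.645 in the others. Markers of mural cells took 0.0347 to 0.0717% in the RV and 0.0409 to 0.0982% in the LV and were lower in the RV of 5 of 6 animals, all but animal 5. The part of these shares in the differences was not tested.

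The differences that were lost belonged mainly to genes low in the healthy RV. Of the 46, 38 were lower in the RV of Sham-F, where their median log2 difference was -1.39, and 8 were higher. In PAB-F the median of the 38 was -0.08. The list of natriuretic peptides with their processing enzymes and receptors had 8 tested genes, of which 3 were called lower and 1 higher in the RV of Sham-F, and 1 lower and 0 higher in PAB-F. A change passed the test for 2, the 2 peptide genes themselves.

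Nppa had normalized counts of 127, 294 and 644 (lowest, median, highest) in the RV of Sham-F and 1919, 3106 and 12450 in the LV, with no overlap. The LV of Sham-F held 6568 to 12450 in males and 1919 to 3106 in females. In PAB-F Nppa had 909.6, 8677 and 100900 in the RV and 2777, 8410 and 20920 in the LV. The RV libraries of PAB-F spanned the range of the LV, and 3 of 6 animals had the higher count in each ventricle. The difference went from -3.89 ± 0.39 in Sham-F to -0.19 ± 0.48 in PAB-F (edgeR adjusted p 0.745), a change of 3.70 ± 0.61 (edgeR adjusted p 0.000677). Without animal 1 the change was 3.19 (adjusted p 0.00772) and without animal 5 it was 3.39 (adjusted p 0.0082). Nppa is the hormone of the atria. Atrial markers took 0.000498 to 0.0066% of counts in the RV of PAB-F (median 0.00131%) and 0.00106 to 0.00276% in the RV of Sham-F (median 0.00141%), and their part in the result was not tested.

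Nppb had normalized counts of 1041, 1467 and 2616 in the RV of Sham-F and 4786, 7946 and 9763 in the LV. In PAB-F the RV held 3822, 7209 and 17150 and the LV 7605, 10680 and 13300. Every RV library of PAB-F was above every RV library of Sham-F, and RV and LV overlapped in PAB-F alone. The difference was -0.43 ± 0.22 in PAB-F (edgeR adjusted p 0.0843; lower in the RV of 5 of 6 animals) and -2.32 ± 0.19 in Sham-F, a change of 1.88 ± 0.29 (edgeR adjusted p 0.000421). Without animal 1 Nppb still differed in PAB-F (-0.64, edgeR adjusted p 0.0146), and the change of 1.65 passed the test (adjusted p 0.00662).

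Penk, the precursor of the enkephalins, had normalized counts of 161, 310.4 and 388 in the RV of Sham-F and 1894, 2122 and 3691 in the LV. In PAB-F the RV held 416, 1686 and 4630 and the LV 1204, 2382 and 3312. All RV libraries of PAB-F lay above those of Sham-F. The difference changed from -3.04 ± 0.27 to -0.54 ± 0.31 (edgeR adjusted p of the change 0.000677; lower in the RV of 5 of 6 PAB-F animals). Without animal 5 Penk still differed in PAB-F (-0.75, edgeR adjusted p 0.0472).

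Among 29 tested genes of the sarcomere and stretch sensors, 2 were called higher and 0 lower in the RV of PAB-F, and 6 higher and 2 lower in Sham-F, beside 10.2% and 7.12% of all genes in PAB-F and 15.4% and 12.5% in Sham-F. The 2 lower genes were Ankrd23, an ankyrin repeat protein that binds titin, and Acta1, and both were lost. Ankrd23 had normalized counts of 575, 2596 and 5960 in the RV of PAB-F and 850.1, 1925 and 2490 in the LV. In the RV of Sham-F it had 156, 247 and 629. The RV ranges of Ankrd23 in the conditions overlapped only in a male Sham-F library and a female PAB-F library. Its difference changed from -2.09 ± 0.23 to 0.22 ± 0.27 (edgeR adjusted p of the change 0.000421), and the change passed the test without animal 1 (2.08, adjusted p 0.00662) and without animal 5 (2.18, adjusted p 0.00419). Acta1 had 6089, 30330 and 44870 in the RV and 8843, 18220 and 30400 in the LV of PAB-F. It went from -1.64 ± 0.23 to 0.19 ± 0.29 (edgeR adjusted p of the change 0.00567), with a change of 1.64 that did not pass without animal 1 (adjusted p 0.0537) and of 1.66 that did without animal 5 (adjusted p 0.034). Myh6, the fast myosin heavy chain, was not called in either, but its difference fell from 0.88 ± 0.13 in Sham-F to 0.19 ± 0.16 in PAB-F (edgeR adjusted p of the change 0.0446), and not without animal 1 (adjusted p 0.244) or animal 5 (adjusted p 0.173). Myh7, the slow form, was at 0.65 ± 0.18 in PAB-F and 0.05 ± 0.14 in Sham-F, and this change did not pass the test (edgeR adjusted p 0.137).

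**Figure D3:**
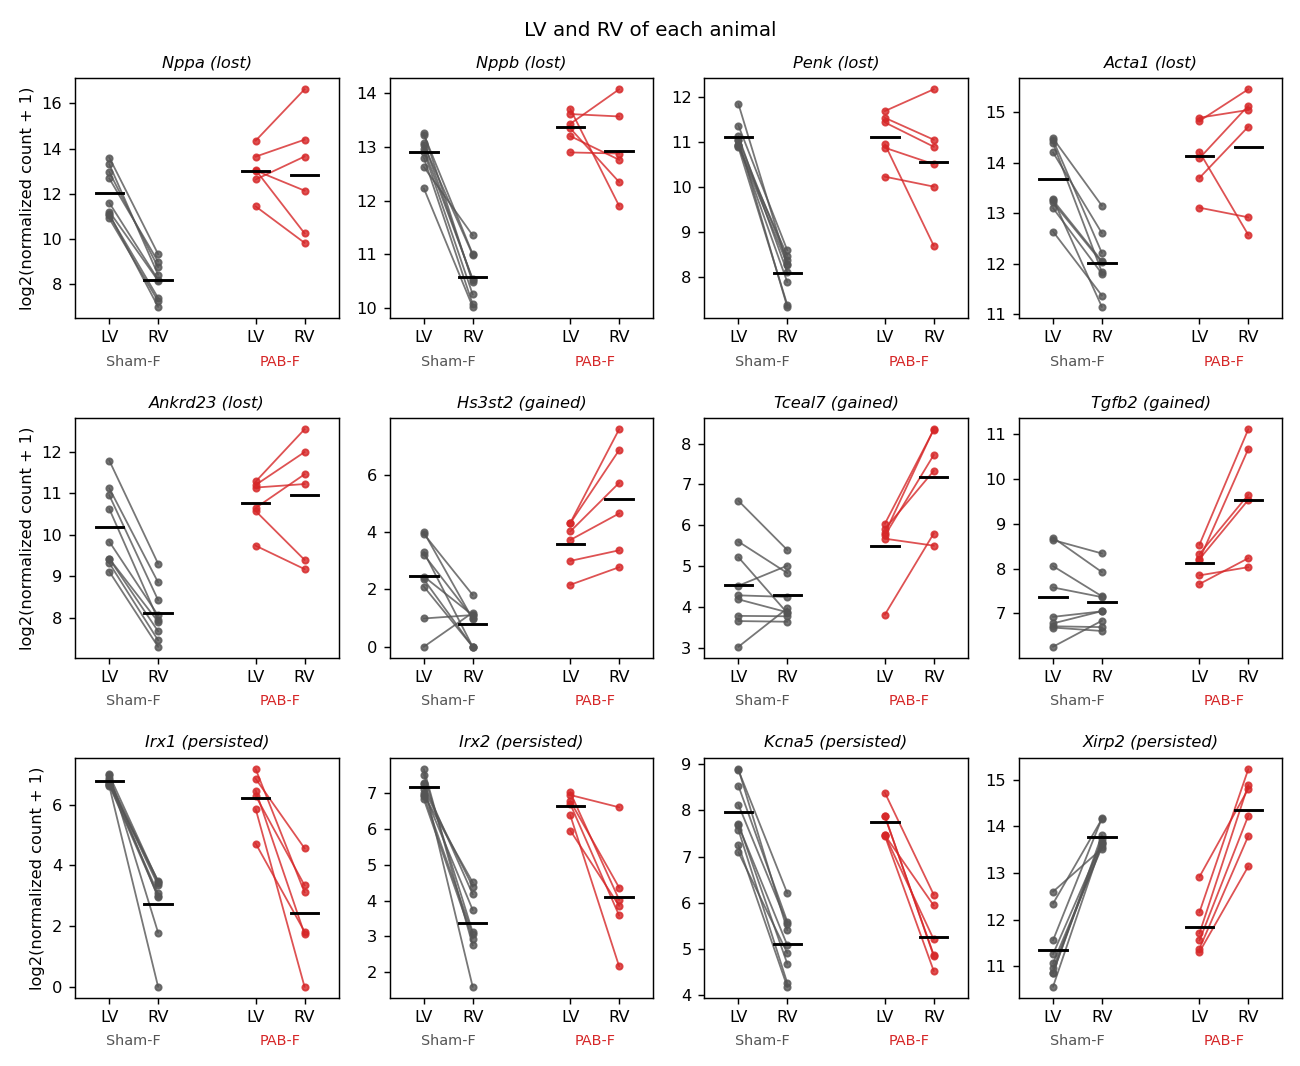
For 12 genes, log2(normalized count + 1) is shown in the LV and RV of each animal, joined by a line, in Sham-F (grey, 9 animals) and PAB-F (red, 6 animals), with black bars at the group means. Lines that fall from LV to RV in Sham-F spread in both directions in PAB-F for Nppa, Acta1 and Ankrd23, while those of Irx1, Kcna5 and Xirp2 keep their direction in every animal.

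The start of these genes is shown because they moved together in the failing RV and because the M-CAT core, CATTCC, is a known element of muscle promoters bound by TEAD factors. The sequences are the 250 bases before the annotated start, from RefSeq on build GRCr8, on the strand of the gene, with capitals marking CATTCC or its reverse complement GGAATG. Nppb lies at chr5:163699758-163700007 on the plus strand, Acta1 at chr19:68784195-68784444 on the minus strand, Ankrd23 at chr9:46274511-46274760 on the minus strand and Nppa at chr5:163711934-163712183 on the plus strand.
Nppb: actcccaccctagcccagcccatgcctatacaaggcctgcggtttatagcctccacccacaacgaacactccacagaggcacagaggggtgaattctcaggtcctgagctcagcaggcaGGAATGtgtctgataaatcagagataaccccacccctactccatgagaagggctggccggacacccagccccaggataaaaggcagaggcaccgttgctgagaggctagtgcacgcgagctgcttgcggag
Acta1: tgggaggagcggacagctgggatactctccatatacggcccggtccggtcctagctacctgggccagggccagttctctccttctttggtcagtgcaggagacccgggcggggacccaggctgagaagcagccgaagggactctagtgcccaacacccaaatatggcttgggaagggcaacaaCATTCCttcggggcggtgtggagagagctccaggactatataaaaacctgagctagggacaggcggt
Ankrd23: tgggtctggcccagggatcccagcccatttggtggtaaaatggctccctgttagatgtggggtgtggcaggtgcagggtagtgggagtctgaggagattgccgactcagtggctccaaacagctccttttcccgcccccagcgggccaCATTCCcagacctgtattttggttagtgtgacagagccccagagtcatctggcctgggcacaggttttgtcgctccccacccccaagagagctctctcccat
Nppa: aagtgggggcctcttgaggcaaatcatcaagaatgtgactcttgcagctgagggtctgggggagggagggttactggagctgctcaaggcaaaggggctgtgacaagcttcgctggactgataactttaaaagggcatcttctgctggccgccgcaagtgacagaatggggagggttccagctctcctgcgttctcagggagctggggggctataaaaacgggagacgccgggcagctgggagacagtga

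The element was found in Acta1 from -67 to -62, in Ankrd23 from -102 to -97 and, on the other strand, in Nppb from -131 to -126, counted back from the start, and these letters were not in the Nppa window. Among the 46 lost genes, 39 had a promoter sequence in the RefSeq table and 8 of the 39 (20.5%) held CATTCC on either strand: Acta1, Ankrd23, Apba1, Gimap9, Nppb, Pcdh11x, Ppef2 and Rgs6. The count joins both directions of loss. Pcdh11x and Rgs6 were higher in the RV of Sham-F and had a lower RV level in PAB-F, and the rest had a higher one. Of all 27457 promoters of the same length 12.9% held it, and of the 9661 promoters matched to tested genes 10.4% did. These matches are a description and no binding was measured.

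Genes higher in the RV of Sham-F were lost in 8 cases. Pcdh11x, a protocadherin of the X chromosome, had normalized counts of 171, 262 and 328 in the RV of Sham-F and 25.8, 41.8 and 54 in the LV, with no overlap. In PAB-F the RV held 18.2, 35.6 and 106 and the LV 15.2, 33.2 and 51.3, so that the ventricles overlapped and every RV library was below those of Sham-F. The difference changed from 2.72 ± 0.26 to 0.47 ± 0.35 (edgeR adjusted p of the change 0.00444). The change passed the test without animal 1 (adjusted p 0.0444) and without animal 5 (adjusted p 0.0267). Lrrc7, a scaffold protein known from synapses, changed from 2.07 ± 0.21 to 0.51 ± 0.26 (edgeR adjusted p of the change 0.00692), and Lsamp, a cell adhesion protein, from 1.08 ± 0.15 to 0.03 ± 0.19 (edgeR adjusted p of the change 0.0133). Both changes missed the threshold without animal 1 (adjusted p 0.0602 for Lrrc7 and 0.0938 for Lsamp), and without animal 5 that of Lsamp did (0.0724).

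Other lost genes, named here after their values were seen, included Cacna1g, a T-type calcium channel of the embryonic ventricle (-1.02 in Sham-F, -0.02 in PAB-F), Nox4, an enzyme that makes reactive oxygen species (-1.17 and 0.30), and Hsd11b1, which regenerates active glucocorticoid (-1.09 and 0.22). The microfibril protein Mfap5 was at -2.17 in Sham-F and -0.53 in PAB-F. Without animal 1 the change passed the test for Cacna1g (0.80, edgeR adjusted p 0.0469) and not for Nox4 (0.0938), Hsd11b1 (0.0938) or Mfap5 (0.174). Without animal 5 it passed for Nox4 (adjusted p 0.0426) and not for Hsd11b1 (0.0524) or Mfap5 (0.121).

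The loss was graded among PAB-F animals. The median RV minus LV difference of the 38 lost genes that were lower in the RV of Sham-F was 0.755 in animal 1, 0.467 in animal 5, -0.046 in animal 2, -0.487 in animal 4, -0.526 in animal 6 and -0.703 in animal 3. All 6 lay above the range of Sham-F, which was -1.65 to -1.26, although these genes had been chosen by a test on the same animals and the separation is thus a description. The 795 persisting genes lower in the RV of Sham-F had medians of -0.968 in animal 1 and -0.418 in animal 5, and of -2.1 to -1.48 in the other 4 animals. In both of these groups, lower in the RV of Sham-F, animals 1 and 5 had the values farthest toward the RV. For genes higher in the RV of Sham-F the same animals lay farthest toward the LV. The 8 lost ones had medians of -0.811 in animal 1 and -0.222 in animal 5, and of 0.143 to 1.08 in the other 4 animals. The 1146 persisting ones also had their lowest medians in these animals, with 0.565 in animal 5. The departure of animal 5 was thus against the Sham-F bias in either direction, and not toward the RV alone. For genes higher in the RV of Sham-F, that of animal 1 was clear only in the 8 lost ones, chosen on these same animals. For 8 of the 46 lost genes the change held on leaving out each PAB-F animal in turn: Ankrd23, Hyal1, Nppa, Nppb, Pcdh11x, Penk, Rgs6 and Sema3b. All but Sema3b also held on leaving out each Sham-F animal. A fit that did not use the animal as a block gave 42 genes with a changed difference in place of 349, and 12 of its 16 lost genes were among the 46.

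**Figure D4:**
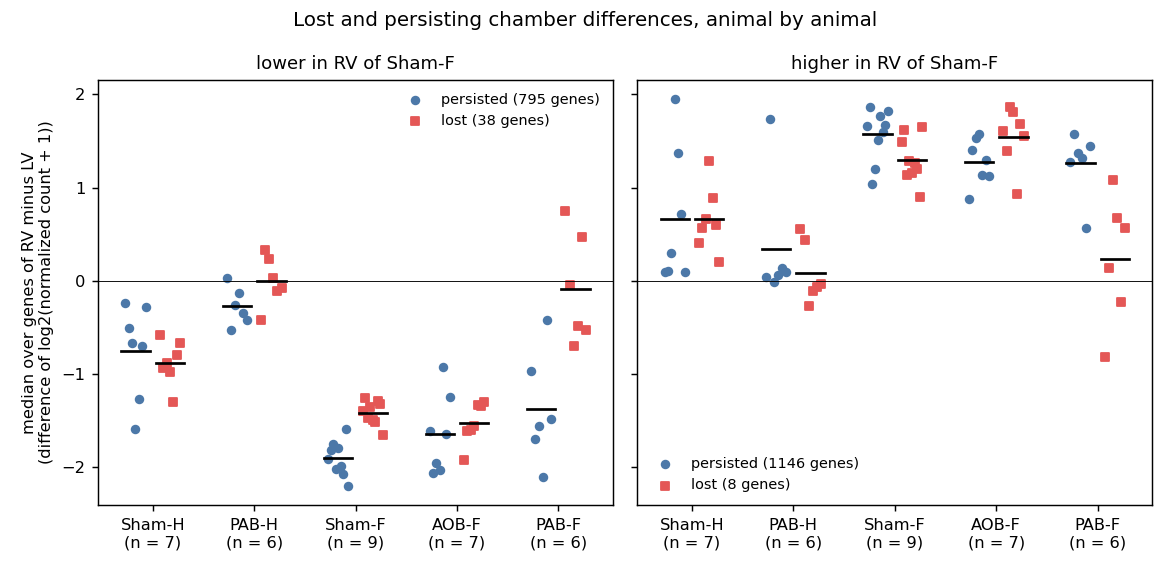
Each point is 1 animal, placed by the median over a set of genes of its RV minus LV difference of log2(normalized count + 1), for genes lower (left) or higher (right) in the RV of Sham-F that persisted (blue circles) or were lost (red squares) in PAB-F, with black bars at the group means. Lost genes of PAB-F lie above all Sham-F animals on the left, at -0.703 to 0.755 against -1.65 to -1.26, and the classes were defined on the Sham-F and PAB-F animals shown.

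Most genes called in Sham-F, the lost ones among them, were also biased in hearts whose LV had failed. In AOB-F, 40 of the 46 were called with the sign of Sham-F and 45 differed with that sign at an adjusted p under 0.05, against 22.2% of all genes called and 70.6% with an adjusted p under 0.05 in AOB-F. Both shares were like those of persisting genes, of which 1642 of 1941 were called and 1931 differed in AOB-F with the sign of Sham-F. For Nppa the AOB-F difference was -3.20, for Nppb -1.88 and for Ankrd23 -2.43. Tested directly, the difference of PAB-F departed from that of AOB-F for 914 genes (7.65%), and for 301 without animal 1, 567 without animal 2 and 268 without the animal as a block. These included Nppa (3.02, edgeR adjusted p 0.00323), Nppb (1.44, edgeR adjusted p 0.00251), Ankrd23 (2.65, edgeR adjusted p 2.08e-05) and Angpt1 (-2.23, edgeR adjusted p 0.00015), a ligand of the endothelial receptor Tie2.

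Angpt1 was an example of a difference that persisted at a smaller size. It had normalized counts of 1180, 1343 and 2060 in the RV of Sham-F and 166.7, 508.5 and 1114 in the RV of PAB-F, with 127, 189 and 334 and 139, 193 and 353 in the LV. The RV libraries of the conditions did not overlap and the LV libraries did. The difference went from 2.90 ± 0.22 to 1.21 ± 0.27, and the change of -1.68 (edgeR adjusted p 0.00559) passed the test without animal 1 (-1.45, adjusted p 0.0469) and without animal 5 (-1.54, adjusted p 0.033).

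Level changes that passed the test were found in the RV. No fit had a term for sex, and PAB-F held 4 male and 2 female animals against 4 and 5 in Sham-F. Between PAB-F and Sham-F, 1325 genes (11.1%) had an adjusted p under 0.05 in the RV, 916 of them higher in PAB-F (7.66%), and 0 (0%) in the LV by edgeR, where 454 genes (3.8%) had an unadjusted p under 0.05. Without animal 1 the RV count was 337 and without animal 2 it was 812. For the 38 lost genes lower in the RV of Sham-F, the median level change was 1.64 in the RV and 0.11 in the LV. Without animal 1 the RV median was 1.21. Nppa rose by 6.17 ± 0.60 on the log2 scale in the RV (edgeR adjusted p 3.7e-12), and by 4.63 ± 0.51 without animal 1 (adjusted p 6.17e-10), whose RV held 100900 normalized counts against 21520 in the next highest. Penk rose by 2.78 ± 0.32 (edgeR adjusted p 1.98e-09) and Nppb by 2.45 ± 0.23 (edgeR adjusted p 6.26e-13). In the LV their changes were 0.87 ± 0.52, 0.05 ± 0.32 and 0.46 ± 0.22, each with an adjusted p of 1. Pcdh11x fell by 2.28 in the RV (edgeR adjusted p 5.01e-07) and was at -0.24 ± 0.33 in the LV.

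**Figure D5:**
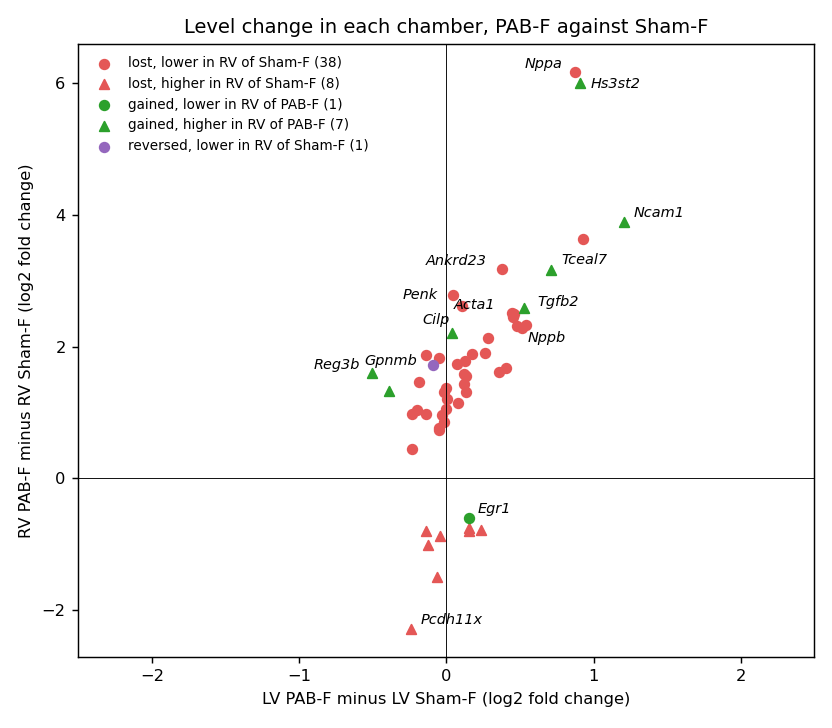
Each point is 1 of the 46 lost, 8 gained and 1 reversed genes, placed by its log2 level change from Sham-F to PAB-F in the LV (horizontal axis) and in the RV (vertical axis), where PAB-F had 6 and Sham-F 9 libraries of each ventricle. The 38 lost genes lower in the RV of Sham-F lie above 0 on the RV axis, with a median of 1.64, and spread around a median of 0.11 on the LV axis.

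Genes of the extracellular matrix, products mainly of fibroblasts and vascular cells, lost part of their LV bias. Of 36 tested, 20 were called lower in the RV of Sham-F and 0 higher, and in PAB-F 12 were lower and 3 higher. Their median difference went from -1.36 to -0.38, beside -0.05 and 0.03 for all genes. A change passed the test for 6, all positive, among them Cilp, a matrix protein of cartilage and of fibroblasts, which changed from -2.32 ± 0.29 to -0.30 ± 0.32 (edgeR adjusted p of the change 0.00692), Col8a1, a short-chain collagen, from -1.80 ± 0.26 to -0.37 ± 0.30 (edgeR adjusted p of the change 0.0346), and Ltbp2, which binds elastic fibres, from -1.86 ± 0.32 to -0.12 ± 0.36 (edgeR adjusted p of the change 0.0401). The matrix enzyme Loxl2 narrowed from -1.59 ± 0.16 to -0.54 ± 0.18 (edgeR adjusted p of the change 0.0133). Ctgf, a matricellular protein, was at -0.38 ± 0.18 in Sham-F and 0.82 ± 0.22 in PAB-F (edgeR adjusted p of the change 0.0163).

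Cilp had normalized counts of 47.4, 72.6 and 494 in the RV of PAB-F and 65, 142 and 195 in the LV, and 3 of 6 animals had the higher count in each ventricle. In the RV of Sham-F it had 9.9, 21.7 and 48.8. Collagens were split. Col1a1 (-1.27 ± 0.32), Col4a1 (-1.30 ± 0.18) and Sparc, a collagen-binding protein (-1.39 ± 0.21), were still called lower in the RV of PAB-F. Col3a1 (-0.45 ± 0.30 in PAB-F, -1.61 ± 0.24 in Sham-F), Col5a1 (-0.88 ± 0.19, against -1.52 ± 0.16) and Col5a2 (-0.34 ± 0.22, against -1.05 ± 0.18) were not, with no change shown. Postn (1.40 ± 0.46) and Vcan (1.16 ± 0.30), matrix proteins of activated fibroblasts, were called higher in the RV of PAB-F with no change shown from Sham-F. Without animal 1 neither was called (Postn 0.92, adjusted p 0.0854, and Vcan 0.86, adjusted p 0.0132). Without animal 1, 0 of the 36 matrix genes had a tested change (adjusted p 0.0689 for Cilp, 0.215 for Col8a1, 0.249 for Ltbp2 and 0.112 for Loxl2) and the PAB-F median was -0.72. Without animal 5, 2 genes had one, Cilp (adjusted p 0.0385) and Ctgf (0.0408), and the median was -0.57.

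Fibroblast markers moved with this group, which was in part fixed in advance by shared genes. The markers include Col1a1, Col3a1 and Postn, named above among the matrix genes, and Mfap5, a lost gene. All fibroblast markers together took 0.0261 to 0.193% of counts (median 0.0493%) in the RV and 0.0341 to 0.109% in the LV of PAB-F. In Sham-F they took 0.0141 to 0.0485% in the RV and 0.0382 to 0.117% in the LV. The share was higher in the RV of 3 of 6 PAB-F animals and of 0 of 9 Sham-F animals. The ratio of RV to LV was 2.42 in animal 1, 1.12 in animal 5, 1.08 in animal 3, 0.58 in animal 2, 0.386 in animal 6 and 0.27 in animal 4, against 0.237 to 0.675 in Sham-F. Macrophage markers had ratios of 1.05 and 1.12 in animals 1 and 5 and of 0.175 to 0.623 in the other 4. The part of these cells in the lost differences was not tested.

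Secreted signals were mixed. Of 29 tested genes, 4 were called higher and 1 lower in the RV of PAB-F, against 2 and 6 in Sham-F, and 6 had a tested change, 5 of them positive, beside 2.92% of all genes. Without animal 1 the positive changes were 2. Gdf15, a stress hormone of the TGF-beta family, was lost (-2.11 ± 0.24 in Sham-F, -0.38 ± 0.27 in PAB-F, edgeR adjusted p of the change 0.00603). Its change did not pass without animal 1 (adjusted p 0.062). Ptgds, a prostaglandin D synthase, was also lost (-1.28 in Sham-F, -0.03 in PAB-F, edgeR adjusted p of the change 0.00756). The change of Ptgds did not pass without animal 1 either (edgeR adjusted p 0.0687). Tgfa, a ligand of the EGF receptor, was at -1.72 ± 0.32 in Sham-F and 0.71 ± 0.34 in PAB-F (edgeR adjusted p of the change 0.00457). Tgfb1 persisted as lower in the RV (-1.75 ± 0.23 in PAB-F) while its relative Tgfb2 was gained as higher.

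Tgfb2 had normalized counts of 261, 771 and 2210 in the RV of PAB-F and 201, 295 and 370.1 in the LV. In Sham-F it had 96.6, 132 and 323 in the RV and 75.5, 120.4 and 413 in the LV. The Sham-F ventricles overlapped throughout, and in PAB-F the RV was higher in 6 of 6 animals. The difference went from -0.14 ± 0.21 to 1.43 ± 0.25 (edgeR adjusted p 6.86e-06), a change of 1.57 (edgeR adjusted p 0.00664) that did not pass without animal 1 (1.32, adjusted p 0.0689). Ncam1, a cell adhesion molecule, was at -0.69 ± 0.22 in Sham-F and 1.27 ± 0.26 in PAB-F, where 4 of 6 animals were higher in the RV (edgeR adjusted p of the change 0.00113). The difference of PAB-F from Sham-F passed for Ncam1 without animal 1 (1.63, adjusted p 0.0184), though the PAB-F difference of 0.96 was then below a call.

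Tceal7, a transcription elongation factor-like protein, had normalized counts of 44.3, 185 and 325 in the RV of PAB-F and 13, 53.8 and 64.6 in the LV. The RV of Sham-F held 11.4, 14.6 and 41.1, below every RV library of PAB-F. Its difference was 1.73 ± 0.38 in PAB-F and -0.37 ± 0.37 in Sham-F (edgeR adjusted p of the change 0.0205), and the change missed the threshold without animal 1 (adjusted p 0.107) or animal 5 (adjusted p 0.0511). Hs3st2, an enzyme that sulfates heparan, had the largest fitted change of the gained genes on very low counts. It had normalized counts of 0 to 2.5 in the RV of Sham-F and 0 to 14.9 in the LV, against 5.82, 37.7 and 190 in the RV and 3.47, 13.7 and 18.9 in the LV of PAB-F. The difference was -2.69 in Sham-F, where the counts were too low for a call, and 1.84 in PAB-F. The change of 4.53 (edgeR adjusted p 0.0101), whose size depends on the prior count of the fit, did not pass without animal 1 (adjusted p 0.062).

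Egr1, an immediate-early transcription factor, was the gained gene that was lower in the RV. It had normalized counts of 1282, 2311 and 3120 in the RV and 3127, 4642 and 6036 in the LV of PAB-F. The ventricles did not overlap in PAB-F, and in Sham-F they did (2882, 3383 and 4232 in the RV, 2350, 4392 and 6310 in the LV). The difference was -1.01 ± 0.15 in PAB-F and -0.19 ± 0.12 in Sham-F (edgeR adjusted p of the change 0.016, and 0.0888 without animal 1). The other gained genes were Zfp365, Reg3b and Ephx4. Ephx4, an epoxide hydrolase, was the gained gene that held on leaving out each PAB-F and each Sham-F animal. Its difference was 1.48 in PAB-F and -0.16 in Sham-F, a change of 1.64 ± 0.34 (edgeR adjusted p 0.00595).

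Gpnmb, a membrane glycoprotein of macrophages and other cells, was the only gene called in Sham-F whose sign reversed. Genes not called in Sham-F could not enter this class. The 7 gained genes higher in the RV of PAB-F also had a negative difference in Sham-F, some of them near 0. Gpnmb had normalized counts of 96.8, 275 and 755 in the RV and 117, 166 and 244 in the LV of PAB-F, and 18.6, 46.1 and 374 in the RV and 85.7, 148 and 391 in the LV of Sham-F. Ranges overlapped in both conditions, and in PAB-F 3 of 6 animals were higher in the RV. The difference was 0.64 ± 0.27 (edgeR adjusted p 0.0379) against -1.27 ± 0.24, a change of 1.90 (edgeR adjusted p 0.00444). Without animal 5 (0.55, edgeR adjusted p 0.107) or animal 1 (0.32, edgeR adjusted p 0.299) the PAB-F difference did not pass, and Gpnmb was then lost rather than reversed.

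Channels, glycolysis and signaling genes had 3 tested changes among them, beside 2.92% of all genes. Of 26 potassium and sodium channels and connexins, 1 was called higher (Kcna4, 1.14 ± 0.20) and 1 lower (Kcna5) in PAB-F, against 6 and 4 in Sham-F, with no tested change. Of 28 genes of glucose uptake, glycolysis and lactate, 1 was called higher in PAB-F and 0 lower. It was Pdha1, of the pyruvate dehydrogenase complex, with normalized counts of 7557, 10550 and 11880 in the RV of PAB-F and 2152, 2705 and 7201 in the LV. The ventricles did not overlap, and the difference was 1.73 ± 0.26 (edgeR adjusted p 6.47e-07). Eno3, the muscle enolase, had the list's tested change, from 0.63 ± 0.12 to -0.29 ± 0.14 (edgeR adjusted p of the change 0.00567, and 0.0536 without animal 1). Of 25 adrenergic and cyclic nucleotide genes, 3 were called higher and 1 lower in PAB-F and 5 and 3 in Sham-F. Rgs2, a brake on G proteins, persisted at 1.84 ± 0.27. The phosphodiesterases Pde2a (-1.06 to -0.52, edgeR adjusted p of the change 0.0126) and Pde4d (1.05 to 0.48, edgeR adjusted p of the change 0.0412) narrowed. Neither change passed without animal 1 (adjusted p 0.104 for Pde2a and 0.175 for Pde4d) or without animal 5 (0.0543 and 0.205).

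The genes that the study names for PAB in the RV were chosen by its authors on these samples and are not independent evidence. Of 21 tested, 6 were called higher and 0 lower in the RV of PAB-F, against 0 and 6 in Sham-F. Of the 21, 10 had a tested change, all positive, with 6 lost and 3 gained. Without animal 1 the number with a tested change was 5, and without animal 5 it was 9.

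In the younger hearts the chamber difference varied widely among animals. For the 1146 persisting genes higher in the RV of Sham-F, the median was 1.95, 1.37 and 0.721 in Sham-H animals 4, 5 and 6. It was 0.0955 to 0.304 in the other Sham-H animals. In PAB-H it was 1.74 in animal 2 and -0.00851 to 0.139 in the others. In Sham-H, 369 genes (3.09%) were called between the ventricles, and 358 of the Sham-F calls were called there too. Of those 358, 302 persisted in PAB-F (84.4%), 20 were narrowed, 16 were lost and for 20 a change was not shown. All 46 lost genes had the sign of Sham-F in Sham-H, and 35 of them differed there at an adjusted p under 0.05, as did 32.5% of all genes. Persisting genes were alike: 1932 of 1941 had the sign of Sham-F in Sham-H and 1550 differed there with that sign. In PAB-H, 50 genes (0.418%) were called, and the difference of PAB-F departed from that of PAB-H for 4673 genes (39.1%). PAB-F animals were 28 and PAB-H animals 11 weeks old, and age and stage cannot be told apart in that comparison.

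The PAB-H differences from Sham-H, a comparison added after the data had been seen, passed the test for 5 genes (0.0418%), all positive, with Gpnmb among them (1.98, edgeR adjusted p 0.0381). The 38 lost genes lower in the RV of Sham-F had a median difference of 0.01 in PAB-H and -0.98 in Sham-H, but 0 of the 46 passed the test of that change. Persisting genes moved the same way. The 795 that were lower in the RV of Sham-F had medians of -0.26 in PAB-H and -0.76 in Sham-H. Of these, 746 had a change toward a higher RV, so the shift was not particular to lost genes, and 1 passed the test of that change. The 1146 persisting genes that were higher in the RV of Sham-F moved the other way. Their medians were 0.33 in PAB-H and 0.65 in Sham-H, and 1102 had a change toward a lower RV, 0 of them by the test. Nppa was at -0.28 in PAB-H and -2.45 in Sham-H, and Acta1 at 0.48 and -1.27 (edgeR adjusted p of the change 0.068). Between PAB-F and PAB-H the difference of Nppa was 0.09 apart (edgeR adjusted p 0.925) and that of Nppb 0.49 (edgeR adjusted p 0.216).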

How the data were processed

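RNA from myocyte-enriched preparations of both ventricles was sequenced after ribosomal RNA depletion. Per the submitters' processing notes, reads were trimmed with Trim Galore, aligned with STAR and counted per gene with featureCounts. The authors deposited raw counts, normalized counts (signal divided by DESeq2 1.28.1 size factors) and FPKM. Raw counts were tested; normalized counts were not used and FPKM gave only gene lengths. Strand was not stated, so overlapping antisense genes cannot be told apart. Rn45s, a ribosomal RNA precursor row, took 0.015036% of the table total.

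All 82 libraries were fitted in R 4.3.3 with edgeR 4.0.16 (TMM, filterByExpr, quasi-likelihood test, Benjamini-Hochberg adjustment over 11954 genes), with the animal as block and an RV term per condition. Every animal gave both ventricles, and deviations of the 2 libraries of a PAB-F animal correlated at 0.109 to 0.368. Chamber differences of 2 conditions were compared by a contrast of their RV terms, and levels between conditions in a fit without the block. Named genes were those with the largest values in each class or direction, members of the gene lists that were called or had a tested change with up to 4 others per list, and genes the study names. Members and lists were chosen with earlier results of these data known. Counts of 11875 genes were simulated with log2 changes of 1.5. Between RV and LV in PAB-F, 195 of 200 changed genes were recovered and 8 other genes were called. For the difference from Sham-F, 182 of 200 were recovered and 4 other genes were called. Recovery of effects that differ between animals was not tested. Alternatives were DESeq2 1.42.0, other normalization, filters, thresholds, subsets and animals left out. Motifs were counted in Python 3.11.15. RefSeq promoters are of build GRCr8, and the files' own build was not used for coordinates. P-values rest on 1 spread per gene, taken between animals within conditions and pooled over all conditions of the 82 libraries. They do not measure the spread of PAB-F alone. Every library was from a separate ventricle, and no 2 PAB-F libraries agreed within counting noise.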

Additional observations from a re-analysis of the deposited data

Results flagged for a closer look

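Of 296 sets of per-animal RV minus LV values, 13 held 1 animal far from the others of its condition, where chance gives about 1 in 20. In PAB-F, animal 5 was apart for 3 genes: Acadl, an enzyme of fatty acid oxidation, at 0.218 (others 1.05 to 1.51), the nucleolar protein gene Ncl at 0.982 (others 2.12 to 2.51) and Nr2f1 at 0.165 (others -1.95 to -1.19). In each the difference of animal 5 was nearer to 0. Animal 3 of PAB-F was apart for Penk at -2.25 (others -0.54 to 0.483), the one animal that kept a difference near the size of Sham-F. In Sham-F, animal 3 was apart for Atp2b1 (0.229), Ncl (0.756) and Nppb (-1.27, others -2.77 to -2.04). Animal 2 was apart for Plod2 (1.03), Rgs2 (3.84) and Slc2a1 (-1.07). Animals 7, 8 and 4 were apart for Col5a1 (-2.47), Cpt2 (-0.24) and Timp1 (-2.79).

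The RV minus LV difference of PAB-F departed from that of Sham-F for 349 genes, from that of PAB-H for 4673 and from that of AOB-F for 914. Among the named genes, the change from Sham-F to PAB-F was toward a higher RV for Hs3st2 (4.53), Nppa (3.70), Penk (2.5), Tgfa (2.43), Ankrd23 (2.31), Tceal7 (2.11), Cilp (2.02), Ncam1 (1.96), Gpnmb (1.90), Nppb (1.88), Tnc (1.88), Acta1 (1.84), Gdf15 (1.73), Ltbp2 (1.73), Tgfb2 (1.57), Col8a1 (1.44), Ptgds (1.25), Ctgf (1.20), Loxl2 (1.04), Hopx (1.03) and Pde2a (0.54). It was toward a lower RV for Pcdh11x (-2.25), Angpt1 (-1.68), Lrrc7 (-1.56), Lsamp (-1.05), Eno3 (-0.92), Pdk4 (-0.90), Egr1 (-0.83), Myh6 (-0.70), Hadh (-0.64) and Pde4d (-0.57). Each is a log2 value tested as a difference of differences.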

How the results depend on the processing

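Leaving out a PAB-F animal gave 1817 to 2709 genes called in PAB-F, 1713 to 2406 persisting, 26 to 738 differing from Sham-F, 3401 to 5675 from PAB-H and 301 to 1087 from AOB-F, 18 to 322 lost or narrowed, 0 to 2 reversed, 1 to 21 gained and 337 to 1744 differing in RV level from Sham-F. Leaving out a Sham-F animal gave 205 to 425 differing from Sham-F and 88 to 178 lost or narrowed. Without the replicate block, 42 genes differed from Sham-F, 268 from AOB-F, 21 were lost or narrowed and 0 reversed. The DESeq2 Wald test gave 554 differing from Sham-F, and 42 of the 46 lost genes were lost under it. An unadjusted p of at most 0.01 gave 977 differing, 341 lost or narrowed, 0 reversed and 16 gained. A fold of 1.5 gave 4799 called in PAB-F, 5776 in Sham-F, 4398 persisting, 5 reversed and 17 gained. With only PAB-F and Sham-F libraries, 2 were reversed, and with DESeq2 size factors or with the gene length trend removed (replicate block kept), 0 were. In male animals alone, a setting chosen after seeing the data, 10 differed from Sham-F, 6 were lost or narrowed and 4 gained. The cause of these shifts was not tested. In the settings in which LV levels were fitted (DESeq2 size factors, no filter, length trend removed, PAB-F animals left out), 0 genes differed from Sham-F. Of 107 named genes that differed between the ventricles of PAB-F, none changed sign under the settings run, and 12 missed the threshold on leaving out a PAB-F animal. Of 31 with a changed difference, 22 missed it on leaving out a PAB-F animal, 7 on leaving out a Sham-F animal, 19 without the block and 23 in male animals alone.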
